A study of Mus musculus with 6 samples.

Results

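Collagen genes were taken from the deposited per-library table as every entry whose symbol is Col, a number, the letter a and a number, and whose value was above 0 in at least 1 library. The rule gave 44 genes of 23351 in the table, and no entry that matched it was at 0 throughout. The samples were repair tissue of C57BL/6 mice: periosteum and the adjoining quadriceps muscle, taken where a bone had been injured. They were 3 libraries from mice injected with Clod-lip, which the table heads as clodronate, and 3 libraries from mice injected with Empty-lip, read here as the liposome without the drug. Both groups carried the injury and a liposome injection. The sources used here give neither dose, time after injury, age nor sex. They also leave unstated whether each library came from its own mouse or from a pool, so a p-value here reflects the scatter of libraries, which may be technical. Clodronate carried in liposomes kills phagocytic cells that take it up, and the series was titled as a search for macrophage factors tied to angiogenesis and healing of wounds.

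The share of FPKM in small RNA genes was 32.7%, 0.189% and 0.0985% in Clod-lip 1, 2 and 3, against 45.1%, 39.1% and 47.7% in Empty-lip 1, 2 and 3, so Clod-lip 2 and 3 stood apart. FPKM is a level per transcript length and per mapped fragment, so levels of different genes can be set side by side. Setting the small RNA genes aside, libraries summed to between 561414 and 606630 FPKM. Rescaling the libraries to equal sums without those genes left 0 collagen genes called, as with the values as deposited.

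Collagens are secreted proteins whose chains, each rich in glycine, wind around one another into a triple helix. Fibrillar collagens assemble into the banded fibres that carry tension in scar, tendon and bone, and type IV collagens form the sheet of basement membranes around muscle fibres and vessels. Type VI collagens form beaded filaments between the basement membrane and the fibres. FACIT collagens, named for their interrupted helices, sit on the surface of fibrils, and types II, IX, X and XI make up the collagen of cartilage. The 44 genes held 8 fibrillar, 6 basement membrane, 6 beaded-filament, 6 FACIT and 7 cartilage collagens. Another 2 encode multiplexins, 2 the short network-forming chains of type VIII, 4 transmembrane collagens, and 3 fall in none of these classes. By structure, types II and XI also count as fibrillar collagens and type IX as a FACIT. They are given here with cartilage alone.

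The collagen message as a whole stood at about the same level in both groups. Summed over the 44 genes it was 4750, 5099 and 5184 FPKM in Clod-lip 1, 2 and 3, against 5321, 4832 and 4550 FPKM in Empty-lip 1, 2 and 3. By limma on log2(FPKM + 1), 0 of the 31 collagen genes that averaged at least 0.5 FPKM passed, taking 0.05 as the limit for the p after Benjamini-Hochberg adjustment, where 2.84% of all 13408 genes tested passed higher and 1.21% lower in Clod-lip. At an unadjusted limma p under 0.05, 9 of the 31 lay higher in Clod-lip and 0 lower, beside 11.4% and 10.4% of all genes tested. The authors' deposited table called 2 of the 21 collagen genes it tested, Col8a2 and Col4a5, both higher in Clod-lip, beside 6.82% of its 10783 tested genes called higher and 5.41% called lower. In Clod-lip, 24 of the 31 log2 differences were above 0, beside 48.1% of all genes tested. Their median was 0.14, beside -0.01 over all genes tested. The other 13 collagen genes averaged less than 0.5 FPKM and are described by their values.

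**Figure D1:**
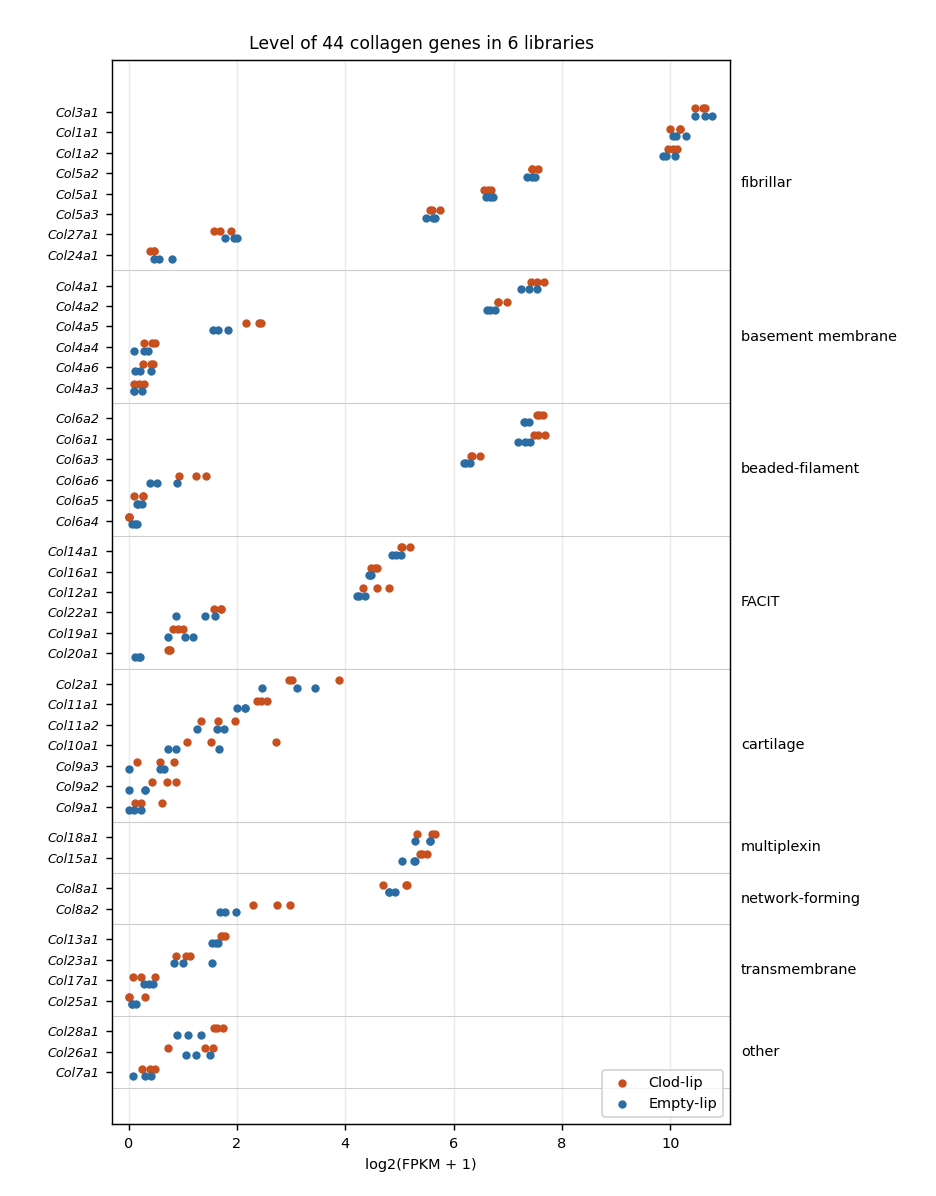
Level of each of the 44 collagen genes as log2(FPKM + 1), 1 point per library, with Clod-lip above Empty-lip for each gene and genes ordered by mean level within a class. Col3a1, Col1a1 and Col1a2 stand above all other genes in all 6 libraries, and the points of both groups overlap for them.

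Promoter sequences are shown for 4 genes: Col8a2 and Col4a5, the pair called in the authors' table, and Col1a2 and Col3a1, fibrillar genes of very high level whose groups overlapped. Each is the 250 bases before the RefSeq start on GRCm38.p6, 5′ to 3′ on the plus strand. Capitals mark 3 motifs on either strand: TATAAA, the motif CCAAT, and the motif GGGCGG. Col8a2 lies at chr4:126286544-126286793, Col4a5 at chrX:141475169-141475418, Col1a2 at chr6:4505368-4505617 and Col3a1 at chr1:45311288-45311537.
Col8a2: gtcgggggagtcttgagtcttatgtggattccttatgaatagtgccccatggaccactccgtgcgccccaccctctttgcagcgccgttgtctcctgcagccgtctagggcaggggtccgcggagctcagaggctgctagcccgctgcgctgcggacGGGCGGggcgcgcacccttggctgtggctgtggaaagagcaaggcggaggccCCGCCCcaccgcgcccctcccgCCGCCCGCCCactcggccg
Col4a5: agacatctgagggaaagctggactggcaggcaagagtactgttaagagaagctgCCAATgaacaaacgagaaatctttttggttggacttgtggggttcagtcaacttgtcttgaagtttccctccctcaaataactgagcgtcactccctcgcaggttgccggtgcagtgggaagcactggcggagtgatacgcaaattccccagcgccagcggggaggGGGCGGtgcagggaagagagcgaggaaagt
Col1a2: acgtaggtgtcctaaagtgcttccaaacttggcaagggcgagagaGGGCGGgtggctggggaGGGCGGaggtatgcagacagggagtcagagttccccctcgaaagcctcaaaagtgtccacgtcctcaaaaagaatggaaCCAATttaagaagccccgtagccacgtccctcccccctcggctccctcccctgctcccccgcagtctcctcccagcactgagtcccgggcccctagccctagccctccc
Col3a1: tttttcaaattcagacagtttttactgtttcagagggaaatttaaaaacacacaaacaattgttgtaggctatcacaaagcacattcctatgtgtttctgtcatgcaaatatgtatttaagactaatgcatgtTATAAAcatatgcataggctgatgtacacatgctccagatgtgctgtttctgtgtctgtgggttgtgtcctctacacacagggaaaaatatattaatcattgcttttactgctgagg

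The 4 windows differed in base composition and in the motifs they held. Sequences are credited to RefSeq. Col8a2 had 70% G and C and held GGGCGG 4 times, with 2 of these overlapping, whereas Col3a1 had 35.2% G and C and held TATAAA once. Col4a5 held CCAAT and GGGCGG once each, and Col1a2 held CCAAT once and GGGCGG 2 times. Of the collagen genes, 35 matched the promoter table, with 38 windows. GGGCGG was found in 22 of these 38 windows (57.9%), beside 32.7% of all 32851 windows of the table. The collagen windows were also richer in G and C, with a median of 59%, beside 52.4% over all windows. The part of base composition in the GGGCGG share was not tested. CCAAT was found in 34.2% of collagen windows and 33.8% of all windows, and TATAAA in 13.2% and 12.4%. A match describes letters and is no evidence of a bound factor.

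Fibrillar collagens held most of the collagen message, and none of their 7 tested genes passed. Col1a1, Col1a2 and Col3a1 together made up between 71.9% and 76.8% of collagen FPKM in every library. Col3a1, which encodes the chain of type III collagen of early scar and vessel walls, had 1403, 1601 and 1543 FPKM in Clod-lip 1, 2 and 3, against 1747, 1598 and 1394 FPKM in Empty-lip 1, 2 and 3. The highest and the lowest library were both Empty-lip. Its log2 difference was -0.06 ± 0.11 (SE), with a 95% interval from -0.31 to 0.20 and a limma adjusted p of 0.829.

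Col1a1, the chain present in pairs in type I collagen, had 1023, 1161 and 1153 FPKM in Clod-lip libraries, against 1253, 1094 and 1061 FPKM in Empty-lip libraries. Its log2 difference was -0.03, with a 95% interval from -0.26 to 0.21 (limma adjusted p = 0.908). Col1a2, the partner chain, had 990, 1052 and 1115 FPKM in Clod-lip libraries, against 1085, 971 and 935 FPKM in Empty-lip libraries, and a log2 difference of 0.08 with an interval from -0.14 to 0.30. The groups overlapped for both genes, and neither interval reached a change of 2-fold. The sign of the Col1a1 difference depended on scaling, at 0.06 after quantile normalization, and so did that of Col3a1, at 0.03.

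Type V collagen nucleates fibrils and limits their width. Col5a2 had 173, 172 and 186 FPKM in Clod-lip libraries, against 180, 174 and 163 FPKM in Empty-lip libraries. Col5a1 had 93.0, 98.8 and 103 FPKM in Clod-lip libraries, against 105, 96.0 and 100 FPKM in Empty-lip libraries. Col5a3 averaged 48.8 ± 3.17 FPKM in Clod-lip libraries and 47.1 ± 3.04 FPKM in Empty-lip libraries (SD, n = 3 each). Their groups overlapped, and over all 6 libraries the coefficient of variation was 4.5% for Col5a2, 4.27% for Col5a1 and 6.1% for Col5a3. These were among the steadiest collagen genes. Col27a1 averaged 2.30 ± 0.372 FPKM in Clod-lip libraries and 2.76 ± 0.301 in Empty-lip libraries, a log2 difference of -0.19 with an interval from -0.53 to 0.15. Col24a1 stood below the filter, at 0.358 ± 0.0414 FPKM in Clod-lip and 0.537 ± 0.194 in Empty-lip.

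As a share of collagen FPKM, the fibrillar class was 78.6%, 81.2% and 80.0% in Clod-lip 1, 2 and 3, against 83.1%, 82.4% and 81.3% in Empty-lip 1, 2 and 3. The shares did not overlap, although the summed fibrillar level did, at 4007 ± 238 FPKM for Clod-lip and 4035 ± 364 for Empty-lip. A share is lower when other classes are higher, and no p is given for sums over the members.

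**Figure D2:**
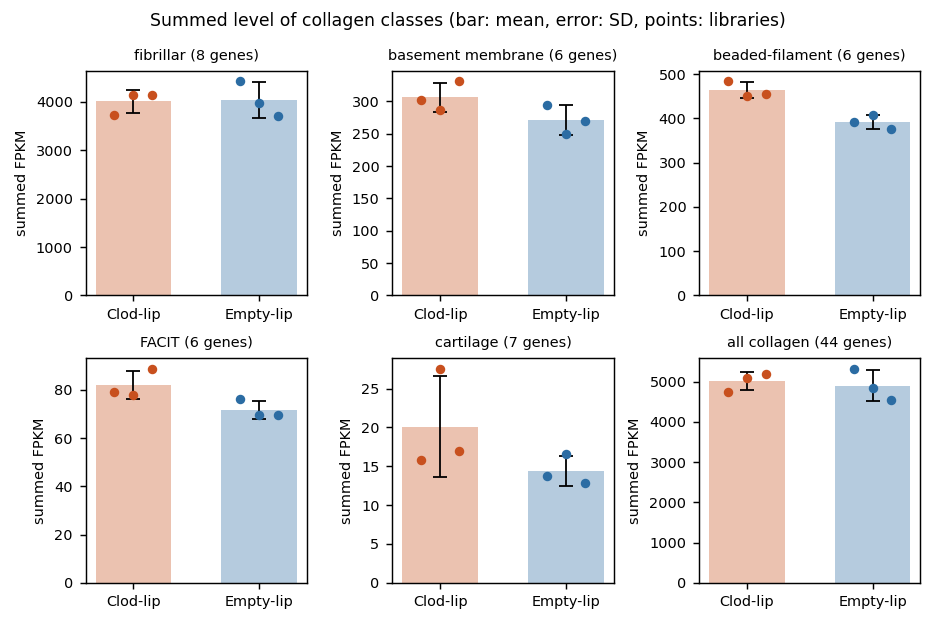
Summed FPKM of 5 collagen classes and of all 44 genes, with bars for the mean, error bars for the SD and points for the 3 libraries of each group, Clod-lip on the left. The beaded-filament and FACIT sums do not overlap between groups, and the fibrillar, basement membrane, cartilage and total sums do. As a share of collagen FPKM, not shown, the FACIT class overlaps and the beaded-filament class does not.

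Beaded-filament collagens were the class in which all tested genes lay higher in Clod-lip without overlap of the groups. This held for 4 of 4, where 12 of all 31 collagen genes and 14.0% of all genes tested were higher without overlap, and none of the 4 passed. No tested collagen gene was lower without overlap, beside 13.4% of all genes tested. Col6a2, which encodes one of the short chains, had 198, 184 and 189 FPKM in Clod-lip 1, 2 and 3, against 156, 166 and 158 FPKM in Empty-lip 1, 2 and 3. By limma the log2 difference was 0.25 ± 0.07 (SE), adjusted p = 0.0946. The lowest Clod-lip library lay above the highest Empty-lip library.

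Col6a1, whose chain joins that of Col6a2 in the filament, had 204, 188 and 177 FPKM in Clod-lip libraries, against 158, 169 and 145 FPKM in Empty-lip libraries (log2 0.27, limma adjusted p = 0.137). Col6a3, the longest of the chains, had 79.9, 78.6 and 88.3 FPKM in Clod-lip libraries, against 77.5, 72.2 and 73.9 FPKM in Empty-lip libraries, a log2 difference of 0.14 with an interval from -0.04 to 0.32. For Col6a3 the gap between the groups was narrower than the spread within either. The class sum was 464 ± 17.7 FPKM for Clod-lip and 392 ± 15.5 for Empty-lip, a 1.18-fold ratio.

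The remaining type VI genes form a cluster on chromosome 9 and were low. Col6a6 had 1.69, 1.38 and 0.902 FPKM in Clod-lip libraries, against 0.851, 0.442 and 0.308 FPKM in Empty-lip libraries, and the log2 difference was 0.60 ± 0.21 (SE), adjusted p = 0.155 by limma. Col6a5 averaged 0.157 ± 0.0733 FPKM in Clod-lip libraries and 0.144 ± 0.0426 in Empty-lip libraries. Col6a4 was listed at 0 in all 3 Clod-lip libraries, against 0.0901, 0.0421 and 0.120 FPKM in Empty-lip 1, 2 and 3.

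Basement membrane collagens were led by Col4a1 and Col4a2, whose chains form the type IV network found in nearly every basement membrane. Col4a2 had 112, 112 and 125 FPKM in Clod-lip 1, 2 and 3, against 107, 96.9 and 101 FPKM in Empty-lip 1, 2 and 3. The groups did not overlap, and the log2 difference of 0.19 ± 0.08 (SE) did not pass (limma adjusted p = 0.22). Col4a1 had 184, 170 and 201 FPKM in Clod-lip libraries, against 184, 149 and 166 FPKM in Empty-lip libraries, a log2 difference of 0.15 with an interval from -0.08 to 0.39. The groups overlapped for Col4a1.

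Col4a5 showed a wider gap at a far lower level. It encodes a chain of the type IV networks that replace the common one in some basement membranes. It had 4.42, 3.49 and 4.33 FPKM in Clod-lip 1, 2 and 3, against 2.56, 2.14 and 1.94 FPKM in Empty-lip 1, 2 and 3. Every Clod-lip library lay above every Empty-lip library, and the log2 difference was 0.66 (SE 0.145), with a 95% interval from 0.32 to 1.00 before adjustment and a limma adjusted p of 0.0511. Per the authors' deposited table its q was 0.00243. The gene passed without Clod-lip 2, with a log2 difference of 0.75 and a limma adjusted p of 0.0292. In that setting 4.55% of all genes tested passed higher, against 2.84% with all libraries. Leaving out any other single library gave limma adjusted p-values from 0.0792 to 0.178, and the replicate block gave 0.0951.

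The 6 type IV genes lie in 3 pairs, head to head. In the deposited positions on mm10, 2 bases separate Col4a1 from Col4a2 on chromosome 8, 71 separate Col4a4 from Col4a3 on chromosome 1, and 1342 separate Col4a6 from Col4a5 on chromosome X. The Col4a1 to Col4a2 ratio was 1.59 ± 0.0642 in Clod-lip and 1.63 ± 0.0894 in Empty-lip. On chromosome X the levels lay further apart: Col4a6 averaged 0.302 ± 0.0865 FPKM in Clod-lip libraries and 0.191 ± 0.125 in Empty-lip libraries, below the level of Col4a5 in each library. Col4a4 averaged 0.323 ± 0.0969 FPKM in Clod-lip libraries and 0.190 ± 0.104 in Empty-lip libraries, and Col4a3 averaged 0.145 ± 0.0667 in Clod-lip and 0.112 ± 0.0711 in Empty-lip. In GENCODE M21 the exons of 13 of the 44 collagen genes overlap another gene, over at most 6.07% of their bases (Col9a3), and whether counting used strand is unstated. For Col4a1 the overlap, with Col4a2, is 0.295%. The deposited positions of 4 collagen genes, Col7a1, Col9a3, Col10a1 and Col27a1, are also those of another gene each.

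**Figure D3:**
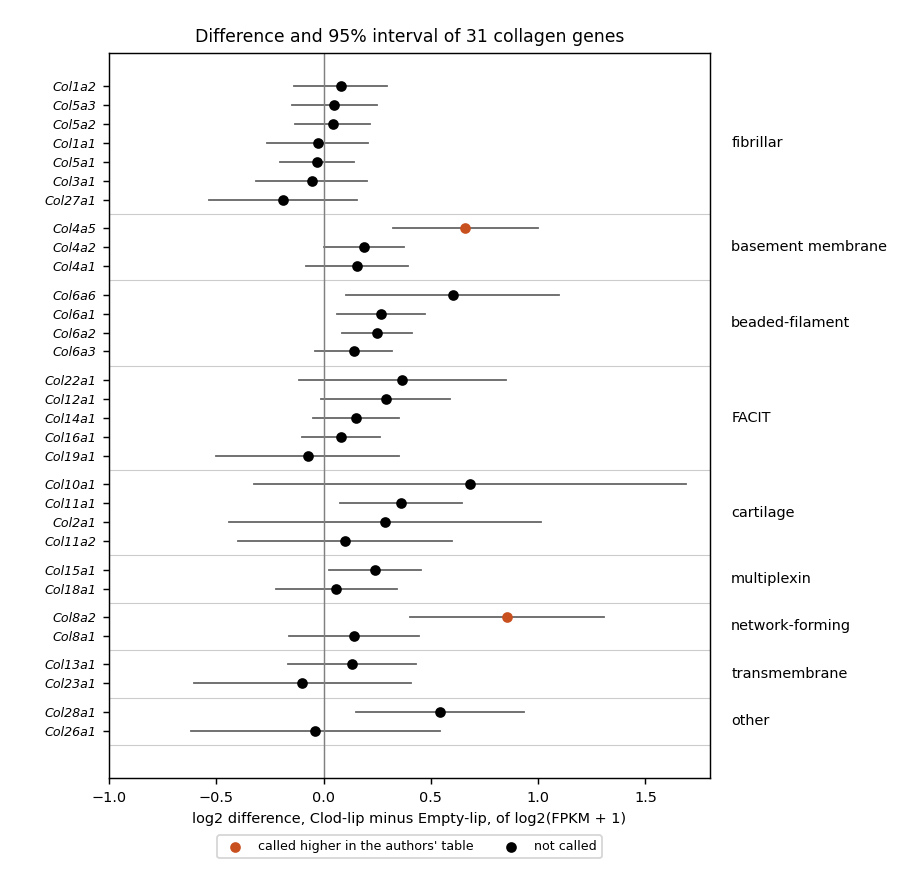
Difference of each of the 31 tested collagen genes on the log2(FPKM + 1) scale, Clod-lip minus Empty-lip, with its 95% interval before adjustment over genes. The points of Col4a5 and Col8a2, at 0.66 and 0.85, are coloured as called in the authors' table, and those of Col1a1, Col1a2 and Col3a1 lie between -0.06 and 0.08.

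FACIT collagens stood far below the fibrils they coat, and none of 5 tested genes passed. Col14a1, which binds to fibrils of skin and tendon, had 31.8, 32.1 and 35.5 FPKM in Clod-lip 1, 2 and 3, against 31.8, 28.0 and 29.6 FPKM in Empty-lip 1, 2 and 3. Its groups met without overlapping, and its log2 difference was 0.15 with an interval from -0.05 to 0.35. Col12a1, a FACIT of dense connective tissue and muscle under load, had 22.9, 19.1 and 27.0 FPKM in Clod-lip libraries, against 19.6, 18.2 and 17.6 FPKM in Empty-lip libraries (log2 0.29, limma adjusted p = 0.244). Clod-lip 3 was the highest library and Clod-lip 2 lay within the range of the Empty-lip libraries.

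Col16a1 had 21.2, 23.0 and 22.4 FPKM in Clod-lip libraries, against 21.3, 20.9 and 20.6 FPKM in Empty-lip libraries, with overlapping groups. Col22a1, which marks junctions of muscle with tendon, ran from 1.97 to 2.27 FPKM in Clod-lip and from 0.830 to 2.03 in Empty-lip. Col19a1 ran from 0.762 to 1.00 FPKM in Clod-lip and from 0.649 to 1.29 in Empty-lip. The class sum was 79.4, 77.9 and 88.8 FPKM in Clod-lip 1, 2 and 3, against 76.1, 69.5 and 69.8 FPKM in Empty-lip 1, 2 and 3. These sums did not overlap. As a share of collagen FPKM, or of all FPKM without small RNA genes, the FACIT class did overlap between groups. Col20a1, the remaining FACIT, was below the filter and is described with the low genes.

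Cartilage collagens were low and varied between libraries of a group. Col2a1, the main fibrillar collagen of cartilage, had 7.07, 13.7 and 6.82 FPKM in Clod-lip 1, 2 and 3, against 7.58, 9.86 and 4.53 FPKM in Empty-lip 1, 2 and 3. Col10a1, a marker of hypertrophic cartilage whose deposited position is also that of Nt5dc1, had 1.88, 5.59 and 1.11 FPKM in Clod-lip libraries, against 0.666, 0.831 and 2.17 FPKM in Empty-lip libraries. Clod-lip 2 was the highest library for both genes. For Col10a1 it is uncertain whether reads of Nt5dc1, on the other strand, enter the value. The limma adjusted p-values were 0.657 for Col2a1 and 0.414 for Col10a1, and without Clod-lip 2 the log2 difference of Col2a1 was -0.01, against 0.28 with all libraries.

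Col11a1 was the 1 tested cartilage gene whose groups did not overlap. It encodes a chain of the type XI fibrils, which also form outside cartilage. It had 4.17, 4.45 and 4.90 FPKM in Clod-lip libraries, against 3.41, 3.02 and 3.44 FPKM in Empty-lip libraries, and the log2 difference was 0.36 ± 0.12 (SE), adjusted p = 0.142 by limma. Col11a2 averaged 2.19 ± 0.687 FPKM in Clod-lip libraries and 1.96 ± 0.523 in Empty-lip libraries, and the type IX genes were below the filter. Of 9 chondrocyte markers, Comp, which tendon also expresses, was the highest at 26.8 to 44.8 FPKM over the 6 libraries, followed by Chad at 11.9 to 25.5 FPKM and Sox9 at 2.81 to 4.90 FPKM. The other 6 stayed at or below 3.36 FPKM, among them the cartilage matrix genes Acan, at most 1.15, Hapln1, at most 0.502, and Matn1, listed at 0 in 5 libraries.

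Col8a2 had the largest log2 difference of the 31 tested genes on the log2(FPKM + 1) scale, which understates changes of low genes. The ratio of group mean FPKM was wider for the lower genes Col6a6 and Col10a1. Type VIII collagen forms short-chain networks beneath endothelium and is made by cells of injured vessels. Col8a2 had 5.64, 3.89 and 6.88 FPKM in Clod-lip 1, 2 and 3, against 2.21, 2.43 and 2.94 FPKM in Empty-lip 1, 2 and 3. All 3 Clod-lip libraries lay above the Empty-lip libraries, and the log2 difference was 0.85 ± 0.19 (SE), with a 95% interval from 0.40 to 1.30 before adjustment and a limma adjusted p of 0.0556. Per the authors' deposited table its q was 0.000928. Without Clod-lip 2 it passed, with a log2 difference of 1.04 and a limma adjusted p of 0.0121. In that setting 4.55% of all genes tested passed higher, against 2.84% with all libraries. With any other library left out, limma adjusted p-values ran from 0.131 to 0.178 and the log2 difference was as low as 0.70.

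Its partner gene Col8a1 stood at 34.3, 24.9 and 33.6 FPKM in Clod-lip libraries, against 27.0, 26.8 and 29.3 FPKM in Empty-lip libraries. Clod-lip 2 was the lowest of all 6 libraries, and the log2 difference was 0.14 with an interval from -0.16 to 0.44. Of the multiplexins, which lie at basement membranes and can release fragments that inhibit vessel growth, Col15a1 had 41.5, 40.8 and 44.7 FPKM in Clod-lip libraries, against 38.0, 31.9 and 37.4 FPKM in Empty-lip libraries (log2 0.24, limma adjusted p = 0.189). Its groups did not overlap. Col18a1, the source of endostatin, had 47.5, 39.0 and 49.7 FPKM in Clod-lip libraries, against 46.0, 38.0 and 46.4 FPKM in Empty-lip libraries, with overlapping groups.

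The transmembrane and unclassed genes were low. Col28a1, a collagen of nerve described in mouse, had 1.98, 2.11 and 2.35 FPKM in Clod-lip libraries, against 1.54, 1.13 and 0.861 FPKM in Empty-lip libraries, without overlap (log2 0.54, limma adjusted p = 0.116). Col26a1 had 1.96, 0.653 and 1.65 FPKM in Clod-lip libraries, against 1.82, 1.09 and 1.38 FPKM in Empty-lip libraries, with overlapping groups. Col13a1, a collagen of the neuromuscular junction, had 2.27, 2.42 and 2.30 FPKM in Clod-lip libraries, against 2.05, 2.14 and 1.93 FPKM in Empty-lip libraries, a log2 difference of 0.13 with an interval from -0.17 to 0.43. Its groups did not overlap. Col23a1 had 0.843, 1.20 and 1.08 FPKM in Clod-lip libraries, against 1.91, 0.781 and 1.01 FPKM in Empty-lip libraries, and Empty-lip 1 was the highest library.

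The values of the 13 genes under the filter could be written as few fragments. In low FPKM values the steps between libraries gave whole numbers, and on that scale each of the 13 could be written as whole fragments within 0.1, taking the smallest whole numbers that fit, so true counts could be multiples of these. Summed over 3 libraries, the genes held 0 to 26 fragments in Clod-lip and 3 to 36 in Empty-lip. Col20a1, singled out after its values were seen, was written as 9, 8 and 9 fragments in Clod-lip 1, 2 and 3, against 1, 2 and 2 in Empty-lip 1, 2 and 3. Its FPKM values were 0.692, 0.657 and 0.668 in Clod-lip libraries, against 0.0816, 0.153 and 0.145 in Empty-lip libraries.

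With no filter on low values, Col20a1 was the 1 collagen gene of 44 to pass, where 1.43% of 16869 genes passed higher, with a log2 difference of 0.57 ± 0.09 (SE) on the log2(FPKM + 1) scale and a limma adjusted p of 0.0339. The exons of Col20a1 overlap another annotated gene over 1.54% of their bases. On the same scale of smallest whole numbers, Col9a2 held 7, 5 and 3 fragments in Clod-lip libraries, against 0, 2 and 2 in Empty-lip libraries. Col9a2 did not pass without the filter (limma adjusted p = 0.153). Col6a4, listed at 0 in Clod-lip, was written as 2, 1 and 3 fragments in Empty-lip 1, 2 and 3. Col7a1, the collagen of anchoring fibrils, had 26 fragments in Clod-lip and 18 in Empty-lip, and Col24a1 held 24 in Clod-lip and 36 in Empty-lip. Col17a1, Col25a1, Col4a3, Col4a4, Col4a6, Col6a5, Col9a1 and Col9a3 held between 3 and 24 fragments in a group, with overlapping groups.

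Ratios between genes within a library do not depend on the scaling of that library. The Col1a1 to Col1a2 ratio was 1.03, 1.10 and 1.03 in Clod-lip 1, 2 and 3, against 1.15, 1.13 and 1.14 in Empty-lip 1, 2 and 3. It was the 1 ratio of the 8 computed in which the groups did not overlap, and no test was made of it. The Col3a1 to Col1a1 ratio was 1.36 ± 0.0215 in Clod-lip and 1.39 ± 0.0735 in Empty-lip, and the Col6a1 to Col6a2 ratio was 0.994 ± 0.0530 in Clod-lip and 0.982 ± 0.0549 in Empty-lip. The Col5a1 to Col5a2 ratio was 0.554 ± 0.0175 in Clod-lip and 0.584 ± 0.0326 in Empty-lip, and the Col6a3 to Col6a1 ratio was 0.437 ± 0.0562 in Clod-lip and 0.476 ± 0.0433 in Empty-lip. Set against Col1a1, Col12a1 stood at 0.0207 ± 0.00376 in Clod-lip and 0.0163 ± 0.000528 in Empty-lip, and Col14a1 at 0.0299 ± 0.00189 in Clod-lip and 0.0263 ± 0.00141 in Empty-lip.

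**Figure D4:**
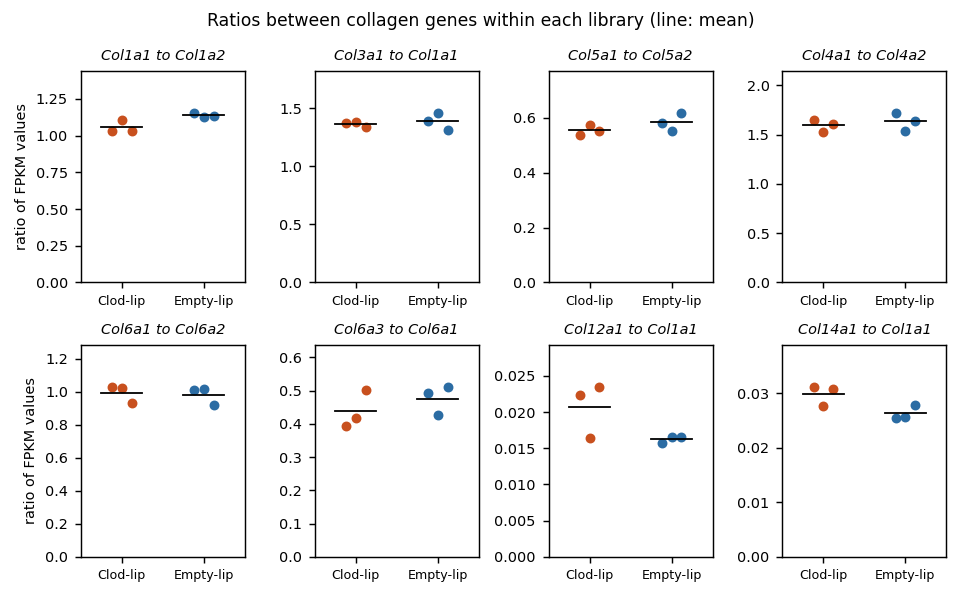
Ratios of FPKM values between collagen genes within each library, with a line at the group mean and Clod-lip on the left. The Col1a1 to Col1a2 points, from 1.03 to 1.10 in Clod-lip and from 1.13 to 1.15 in Empty-lip, are the ones that do not overlap.

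Genes that make, fold, export, crosslink and bind collagen were examined as 6 lists, with 2 of 65 tested genes passing in all (3.08%), beside 4.05% of all genes tested. Of 19 genes of chain modification and folding, 0 passed by limma in either direction, with 2 higher and 4 lower at an unadjusted p under 0.05, where 11.4% of all genes lay higher and 10.4% lower (median log2 difference -0.14, beside -0.01 over all genes). The authors' deposited table called 1 of them higher and 3 lower. Serpinh1, the collagen chaperone HSP47, had 447, 544 and 516 FPKM in Clod-lip 1, 2 and 3, against 676, 653 and 621 FPKM in Empty-lip 1, 2 and 3. All 3 Clod-lip libraries were below the Empty-lip libraries, the log2 difference by limma was -0.37 ± 0.10 (SE), adjusted p = 0.0732, and per the authors' deposited table q was 0.0272. P4hb, a subunit of the enzyme that hydroxylates prolines, averaged 455 ± 47.2 FPKM in Clod-lip libraries and 506 ± 5.90 in Empty-lip libraries, with a limma adjusted p of 0.367.

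Of 10 genes of procollagen export and processing, 0 passed, 0 had an unadjusted p under 0.05, and the authors' deposited table called 0 (median 0.08). Pcolce, which enhances removal of the C-terminal propeptide, averaged 188 ± 9.14 FPKM in Clod-lip libraries and 185 ± 13.6 in Empty-lip libraries. Bmp1, the protease that removes that propeptide, averaged 38.2 ± 5.01 FPKM in Clod-lip libraries and 40.7 ± 5.22 in Empty-lip libraries. Of 5 lysyl oxidase genes, whose enzymes crosslink collagen, 1 passed, lower in Clod-lip, and 4 did not (median -0.14). Lox, the most abundant of them, lay higher, with 260, 219 and 272 FPKM in Clod-lip libraries, against 197, 176 and 178 FPKM in Empty-lip libraries. Its groups did not overlap, its log2 difference of 0.44 did not pass (limma adjusted p = 0.0557), and the authors' deposited table called it higher, with q = 0.00443. The summed level of the list in Clod-lip was 1.11-fold that in Empty-lip. Loxl3 fell, with 14.2, 20.8 and 19.9 FPKM in Clod-lip libraries, against 30.7, 29.2 and 29.7 FPKM in Empty-lip libraries. By limma the log2 difference was -0.70 ± 0.14 (SE), adjusted p = 0.0409, and, per the authors' deposited table, q was 0.00962. The call was lost without Clod-lip 1 (limma adjusted p = 0.0641), Clod-lip 3 (0.125), Empty-lip 1 (0.108), Empty-lip 2 (0.139) or Empty-lip 3 (0.136), and with the replicate number as a block (0.0727). Calls also fell over the whole table in these settings. Of all genes tested, 8, 4, 46, 1 and 7 passed lower with these libraries left out in turn. The block passed 50 lower, against 162 with all libraries and no block.

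Of 15 other genes of the basement membrane, 13 were tested: 1 rose, 0 fell and 12 missed the threshold (median 0.18). Lamb2, the laminin chain of neuromuscular junctions and vessels, rose, with 29.2, 24.6 and 31.4 FPKM in Clod-lip libraries, against 20.1, 17.8 and 17.5 FPKM in Empty-lip libraries. By limma the log2 difference was 0.59 ± 0.11 (SE), adjusted p = 0.0362. The call was lost without Clod-lip 1 (0.117), Clod-lip 3 (0.142), Empty-lip 1 (0.0612), Empty-lip 2 (0.138) or Empty-lip 3 (0.132), and with the block (limma adjusted p = 0.0614). Over the whole table, 22, 12, 223, 1 and 78 genes passed higher with these libraries left out in turn. The block passed 120 higher, against 381 with all libraries and no block. Of 9 collagen receptor genes, 0 passed, with 1 higher and 1 lower at an unadjusted p under 0.05 and the same counts in the authors' deposited table (median 0.04). Itgb1, the shared beta chain of collagen-binding integrins, averaged 216 ± 14.6 FPKM in Clod-lip libraries and 233 ± 3.76 in Empty-lip libraries. Mrc2, an endocytic collagen receptor, had a log2 difference of -0.09. Of 9 regulators of collagen transcription, 0 passed and 1 was lower at an unadjusted p under 0.05 (median 0.12). The authors' deposited table called that gene, Tgfb1, lower. Tgfb1, which encodes a growth factor that induces collagen, averaged 71.4 ± 13.9 FPKM in Clod-lip libraries and 93.9 ± 10.5 in Empty-lip libraries, and Scx, a tendon transcription factor whose deposited position is also that of Bop1 and Mroh1, had a log2 difference of 0.12.

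**Figure D5:**
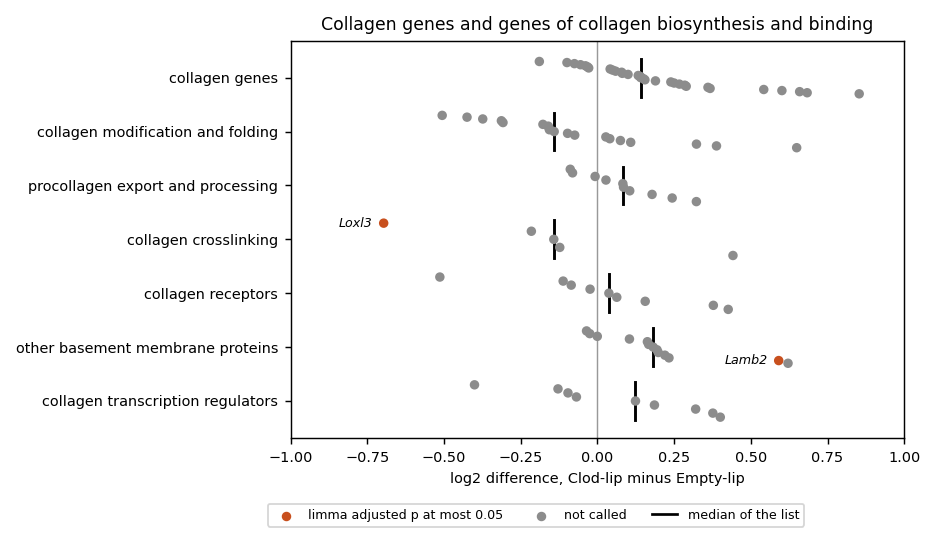
Difference on the log2(FPKM + 1) scale, Clod-lip minus Empty-lip, of the tested collagen genes and of the genes in 6 lists of collagen biosynthesis and binding, 1 point per gene, with a line at the median of each list. Loxl3, at -0.70, and Lamb2, at 0.59, are the coloured points with a limma adjusted p of 0.05 or less.

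Markers of the cells in the tissue moved beside these values. Over all genes tested, 2.84% passed higher and 1.21% lower by limma, and 11.4% and 10.4% did at an unadjusted p under 0.05. The authors' deposited table called 6.82% of its tested genes higher and 5.41% lower. Contractile genes of skeletal muscle rose in 12 of 12, with summed levels from 25199 to 27397 FPKM in Clod-lip and from 11568 to 15787 in Empty-lip. Of 10 fibroblast markers, Thy1 fell, 0 rose and 9 did not pass by limma, with 6 higher and 2 lower at an unadjusted p under 0.05. The authors' deposited table called 2 of them higher, Dcn and Pi16, and 0 lower, with q = 0.0554 for Thy1. The fibroblast sum ran from 1080.0 to 1128 FPKM in Clod-lip and from 812 to 948 in Empty-lip. Of 10 macrophage markers, 3 fell by limma and 0 rose, with 8 lower and 0 higher at an unadjusted p under 0.05. The authors' deposited table called 8 of them lower and 0 higher. For 5 of the 10, every Clod-lip library lay below every Empty-lip library, beside 13.4% of all genes tested. Sums over the 10 ran from 1551 to 2578 FPKM in Clod-lip and from 2747 to 2938 in Empty-lip. In Clod-lip 1, 2 and 3, Emr1 had 82.8, 144 and 90.5 FPKM, against 131 to 143 in Empty-lip. Csf1r had 105, 149 and 90.2 FPKM, against 147 to 150. Of 7 neutrophil markers, 3 rose by limma and 0 fell, with 4 higher and 0 lower at an unadjusted p under 0.05. The authors' deposited table called 6 of the neutrophil markers higher and 0 lower. Their sums ran from 873 to 3383 FPKM in Clod-lip and from 497 to 1286 in Empty-lip. Of 6 tendon markers, 1 rose by limma and 0 fell, with 3 higher and 0 lower at an unadjusted p under 0.05. The authors' deposited table called 1 of the tendon markers higher and 0 lower. Their sums ran from 416 to 503 FPKM in Clod-lip and from 329 to 395 in Empty-lip. Among 9 endothelial, 7 osteoblast, 6 chondrocyte and 7 Schwann cell markers tested, 0 passed by limma, with 3, 1, 3 and 3 at an unadjusted p under 0.05, all higher, and 2, 1, 0 and 1 called higher in the authors' deposited table. The muscle label was matched by Acta1, at 3367 FPKM or more in every library. Bone markers were far lower, with Sp7 at most 0.627 FPKM and Bglap from 1.06 to 9.26 FPKM. Ibsp, the highest of them, ran from 6.75 to 13.4 FPKM. Alpl had 4.52 to 5.36 FPKM in Clod-lip and 1.99 to 3.65 in Empty-lip, and was the osteoblast gene called in the authors' deposited table (q = 0.0422). Sums ran from 359 to 392 FPKM in Clod-lip and from 281 to 359 in Empty-lip for endothelial markers, and from 63.6 to 74.9 in Clod-lip and from 46.0 to 61.6 in Empty-lip for chondrocyte markers. The part of these shifts in the collagen values was not tested, and in bulk tissue fewer cells of a type cannot be told apart from less RNA per cell.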

How the data were processed

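RNA sequencing libraries from total RNA, 3 Clod-lip and 3 Empty-lip, were grouped by title. The build mm10 and the aligner TopHat are named per the submitters' processing notes, and no source names the other tools. FPKM values of each library and a comparison with p-values and q-values, called at a q of 0.05, are as the authors deposited them. Starts in the deposited positions count from 0 and were raised by 1.

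The limma test (version 3.58.1, R 4.3.3) was run on log2(FPKM + 1) with a variance trend over 13408 genes averaging at least 0.5 FPKM, with Benjamini-Hochberg adjustment over all of them; this scale understates changes of low genes. It was checked on simulated data. Counts of reads were not used. Steps between low FPKM values, up to 0.5, put relative depth at 0.993 to 1.13, with Empty-lip 1 as 1, unless the values were scaled further.

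Values of every library are given for collagen genes passing either test, the 2 highest of each class and genes of the 8 ratios. From a pathway list, up to 3 genes passing by limma are described, or the 2 highest where none passed. Other pathway genes called in the authors' deposited table alone are counted, without values. Lox, outside this rule, is given as the most abundant gene of its list. Col6a4, Col6a6, Col9a2, Col10a1 and Col20a1 were added after their values were seen. Members, classes and lists were chosen with earlier results of these data known. GENCODE M21 gave exon overlaps. Alternatives changed the pseudocount (0.1, 0.5), the filter (none, 5 FPKM), the scaling (quantile, equal sums without small RNA genes), the trend, the replicate block, or the libraries included.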

Additional observations from a re-analysis of the deposited data

How the results depend on the processing

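No collagen gene passed with either other pseudocount, quantile normalization, equal sums or the replicate block. None of the 18 averaging at least 5 FPKM passed with that filter, which left Col4a5 and Col8a2 untested. The count of collagen genes higher was 1 of 44 with no filter (Col20a1), where 1.43% of all genes passed higher, 1 of 31 without the variance trend (Col4a5), where 1.76% did, and 2 of 31 without Clod-lip 2 and Empty-lip 1 together, where 3.65% did. It was 2 in the authors' deposited comparison, and 0 to 2 with single libraries left out. The authors' comparison called 1 modification gene higher and 3 lower, 1 crosslinking gene higher, 1 receptor gene higher and 1 lower, 2 other basement membrane genes higher and 1 regulator lower. Without Clod-lip 2 and Empty-lip 1 together, 1 crosslinking gene was higher, 1 receptor gene lower, 2 other basement membrane genes higher and 1 regulator lower. Of all genes tested, 3.65% passed higher and 4.56% lower in that setting. With the filter at 5 FPKM, 1 crosslinking gene and 2 other basement membrane genes were higher. That filter passed 4.33% of all genes higher and 2.32% lower. The crosslinking gene lower and the other basement membrane gene higher both went to 0 with no filter, without the trend and with the replicate block. In these settings in turn, 1.43%, 1.76% and 0.895% of all genes passed higher, and 0.415%, 0.358% and 0.373% lower. Leaving out single libraries gave 0 to 2 modification genes lower, 0 to 1 crosslinking gene higher and 0 to 1 lower, 0 to 1 receptor gene lower, 0 to 2 other basement membrane genes higher and 0 to 1 regulator lower. The highest of each count, and the 2 collagen genes, came without Clod-lip 2, where 4.55% of all genes passed higher and 5.83% lower. Leaving out any other single library passed 0.00746% to 1.66% of all genes higher and 0.00746% to 0.343% lower. The causes were not tested.

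Signs turned for the genes named here, Col2a1 among them at 0.28 with all libraries. Under quantile normalization the log2 difference was 0.03 for Col3a1, 0.00 for Col5a1 and 0.06 for Col1a1. Without Clod-lip 2 and Empty-lip 1 together it was 0.01 for Col1a1, -0.04 for Col11a2, 0.08 for Col19a1, 0.05 for Col23a1 and 0.33 for Col26a1. With single libraries left out it ran from -0.01 to 0.50 for Col2a1, -0.03 to 0.16 for Col18a1, -0.00 to 0.09 for Col5a3, -0.14 to 0.02 for Col3a1, -0.06 to 0.01 for Col5a1, -0.08 to 0.04 for Col1a1, -0.06 to 0.25 for Col11a2, -0.21 to 0.03 for Col19a1, -0.25 to 0.11 for Col23a1, -0.20 to 0.21 for Col26a1, -0.03 to 0.07 for Pcolce and -0.17 to 0.02 for Bmp1. Scalings moved the median of all genes by less than 0.1.

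The replicate numbers gave no sign of pairing: deviations of same-numbered libraries correlated at -0.08, -0.0404 and 0.0848. With the replicate block, 120 genes were higher and 50 lower over the whole table, against 381 and 162 without it, and 0 collagen genes passed. Without Clod-lip 2 these counts were 610 and 782, and without Empty-lip 2 they were 1 and 1. Low values limit the 13 genes under 0.5 FPKM, for which the smallest whole numbers that fit give 0 to 36 fragments in a group.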
